A study of Mus musculus with 6 samples.

Results

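The genes described here encode the CDK inhibitors and the retinoblastoma family of pocket proteins. They are 10 of the 55536 genes counted in the files and were chosen by name and function: Cdkn1a, Cdkn1b and Cdkn1c of the Cip/Kip family, Cdkn2a, Cdkn2b, Cdkn2c and Cdkn2d of the INK4 family, and the pocket protein genes Rb1, Rbl1 and Rbl2. Messenger RNA was sequenced from CAD cells, a male mouse (C57BL/6 x DBA/2) line of the central nervous system. Simian virus 40 is listed as the line's transformant in both groups, and whether the cells still carry it was not examined. The undifferentiated group had 3 libraries from proliferating cells in medium with 8% serum. The dexamethasone group had 3 libraries from cells given 100 µM dexamethasone, a synthetic glucocorticoid, for 5 days in 1% serum. Steroid and serum changed at once, and their effects cannot be told apart in this design.

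Cells divide when cyclin-dependent kinases (CDKs), each bound to a cyclin, phosphorylate the pocket proteins and thereby release the E2F transcription factors that drive DNA replication genes. INK4 proteins bind Cdk4 and Cdk6 alone, whereas Cip/Kip proteins bind cyclin–CDK complexes more broadly, and both slow the cycle. The large T antigen of simian virus 40 is known to bind the pocket proteins and p53. In cells that express it, the level of a pocket protein's RNA does not give the amount of free protein. Viral transcripts were not analysed here, so whether these cells express it was not tested.

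Read totals were between 6411105 and 8757992 per library. Levels are given as CPM, reads scaled to the size of the library, after TMM scaling, which corrects library size for composition, and changes as log2 fold changes of dexamethasone over undifferentiated libraries. A gene is called higher or lower where the p-value of edgeR's quasi-likelihood test, adjusted by the Benjamini-Hochberg method over all tested genes, was under 0.05. Of 12664 genes tested, 78.9% were called, 40.3% higher and 38.6% lower, so a call alone sets no gene apart in this comparison. The share of all tested genes whose groups do not overlap was not counted, so a lack of overlap below only describes that gene. The labels name the samples of each group as independent without saying whether each was a culture of its own, so the p-values cover only how far these samples differ from each other, which may be technical. The cycling marker Mki67 averaged 618 ± 22 CPM (SD, n = 3) in undifferentiated and 21.3 ± 2.74 CPM (SD, n = 3) in dexamethasone libraries. In RNA from bulk cultures, fewer cells expressing a gene and less of its RNA per cell cannot be told apart, which holds for each value below.

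Of the 10 genes, 9 had enough reads to be tested. Cdkn1a, Cdkn2a, Rb1 and Rbl2 rose, Cdkn1b, Cdkn2c, Cdkn2d and Rbl1 fell, and Cdkn1c was not called. That is 4 called higher and 4 called lower, beside 40.3% and 38.6% of all tested genes. Each of the 3 families held genes that moved in opposite directions. In the Cip/Kip family this rests on the small fall of Cdkn1b (-0.16), whose call depended on the setting. The median log2 fold change of the 9 tested genes was 0.29, against 0.02 over all tested genes.

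**Figure D1:**
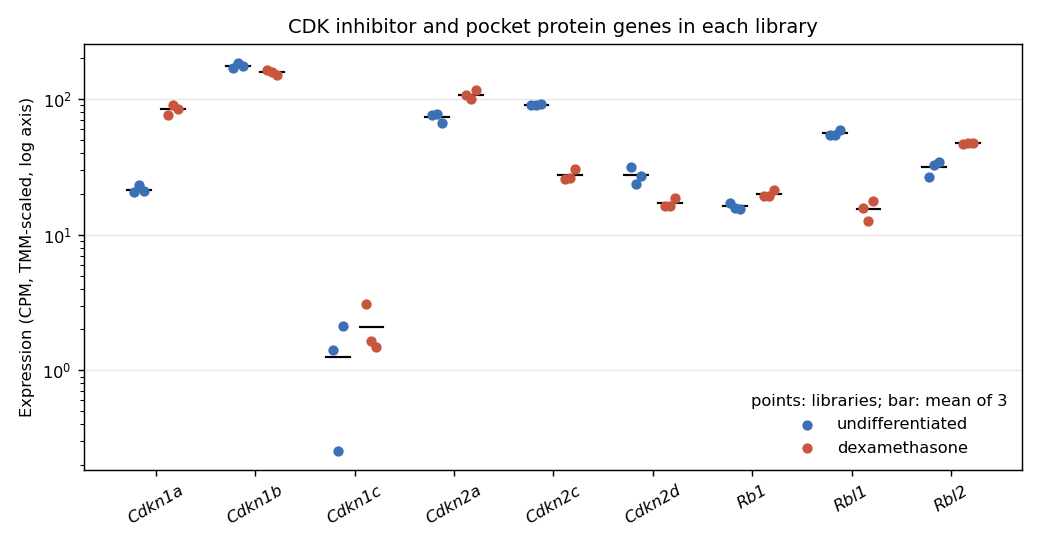
Expression of the 9 tested genes in each library, in TMM-scaled CPM on a log axis. Points are libraries (blue undifferentiated, red dexamethasone) and bars are means of 3. The groups overlap for Cdkn1c, and the gap is widest for Cdkn1a, Cdkn2c and Rbl1.

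The largest rise was that of Cdkn1a and the largest fall that of Rbl1, and the sequences before their transcription starts are shown because E2F and p53, the best known regulators of these genes, act on such regions. Each runs 5′ to 3′ on the gene's own strand over the 250 bases that end just before a RefSeq start (GRCm38.p6). Rbl1 lies on the minus strand and its sequence covers chr2:157204535-157204784. Cdkn1a lies on the plus strand and has a pair of listed starts, the first with chr17:29090729-29090978 before it and the second, inside the annotated gene, with chr17:29093519-29093768. Capitals mark matches, on either strand, to an E2F motif (TTTCCCGC, TTTCGCGC, TTTGCCGC or TTTGGCGC), a GC box (GGGCGG, the motif of Sp1) or the p53 response element with at most 1 mismatch.
Rbl1: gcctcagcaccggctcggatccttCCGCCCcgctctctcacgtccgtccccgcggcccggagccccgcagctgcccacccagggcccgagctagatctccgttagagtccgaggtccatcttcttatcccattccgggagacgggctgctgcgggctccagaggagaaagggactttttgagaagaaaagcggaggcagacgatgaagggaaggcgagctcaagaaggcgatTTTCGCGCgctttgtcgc
Cdkn1a, first start: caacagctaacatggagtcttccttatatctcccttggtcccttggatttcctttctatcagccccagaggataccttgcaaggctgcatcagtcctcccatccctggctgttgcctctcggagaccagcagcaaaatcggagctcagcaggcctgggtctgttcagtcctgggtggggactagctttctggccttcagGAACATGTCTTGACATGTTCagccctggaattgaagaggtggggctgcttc
Cdkn1a, second start: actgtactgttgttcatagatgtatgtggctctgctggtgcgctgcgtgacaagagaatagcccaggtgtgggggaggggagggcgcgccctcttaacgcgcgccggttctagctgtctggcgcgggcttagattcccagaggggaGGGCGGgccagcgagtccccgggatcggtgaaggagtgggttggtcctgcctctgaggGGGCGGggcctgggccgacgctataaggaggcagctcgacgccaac

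The Rbl1 sequence held TTTCGCGC beginning 18 bases before the start, and a GC box 226 bases before it. The first Cdkn1a sequence held the p53 element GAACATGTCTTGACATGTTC beginning 51 bases before the start, and no E2F motif or GC box. The second held GC boxes 104 and 46 bases before the start. In the RefSeq table, which gives 250 bases before and 50 after each start, an E2F motif occurred in 2.26% of 32851 promoters, a GC box in 35.7% and the p53 element in 0.0883%, or 29 promoters. The table held 11 promoters for 8 of the 10 genes. Cdkn1c and Rb1 are not among them. An E2F motif was found in 2 of the 11, that of Rbl1 and the first of Cdkn2a (TTTCCCGC, beginning 99 bases before the start), and no E2F match overlapped a GC box. A GC box was found in 9 of the 11. TTTGAA, the core of the cell cycle element called CHR, was found in 2 (Cdkn2b and Rbl2) and occurred in 17.9% of all promoters. AGAACA, the core letters of a glucocorticoid receptor site, was found in 1 (the first of Cdkn2c) and occurred in 19% of all. A match describes the letters alone, and no binding was measured.

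Cdkn1a encodes p21, which inhibits cyclin–CDK2 complexes and is a classic p53 target. The gene (ENSMUSG00000023067) lies at chr17:29090976-29100727 on the plus strand in GRCm38. Its level was 20.5, 23.1 and 20.9 CPM in undifferentiated replicates 1, 2 and 3, and 76.8, 90.5 and 84.3 CPM in dexamethasone replicates 1, 2 and 3. Every dexamethasone library lay far above every undifferentiated one. The mean rose 3.89-fold, a log2 fold change of 1.96 ± 0.084 (SE; 95% interval 1.79 to 2.13) with an edgeR adjusted p of 8.02e-18.

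Cdkn1b encodes p27, a brake on cyclin E–CDK2 whose protein amount is known to be set largely by translation and breakdown. The gene (ENSMUSG00000003031) lies at chr6:134920401-134925513 on the plus strand. Its level was 169, 183 and 176 CPM in undifferentiated and 164, 158 and 151 CPM in dexamethasone replicates 1, 2 and 3. The groups did not overlap but came within a few CPM of each other. The mean fell 1.11-fold, with a log2 fold change of -0.16 ± 0.054 (SE; 95% interval -0.27 to -0.05) and an edgeR adjusted p of 0.0105. The call was lost with upper quartile scaling (adjusted p = 0.363), library totals (0.603) and no filter on low counts (0.0617). It was also lost without undifferentiated replicate 2 (0.0755) and without dexamethasone replicate 3 (0.0624), while the sign stayed negative in each.

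Cdkn1c encodes p57, an imprinted inhibitor of the same family. The gene (ENSMUSG00000037664) lies at chr7:143458339-143461050 on the minus strand and was close to the limit of detection. It had 10, 2 and 13 reads in undifferentiated and 28, 15 and 10 reads in dexamethasone replicates 1, 2 and 3, so the read counts of the groups overlapped. The log2 fold change was 0.82 ± 0.434 (SE; 95% interval -0.07 to 1.72), with an edgeR adjusted p of 0.0845. The interval spans 0, and a change was not detectable at this depth. The estimate was 0.28 without undifferentiated replicate 2 and 0.40 without dexamethasone replicate 1, and it passed the threshold without undifferentiated replicate 3 (1.38, adjusted p = 0.0193) and with limma voom (1.11, adjusted p = 0.0449).

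Cdkn2a encodes p16Ink4a, an inhibitor of Cdk4 and Cdk6, and from another first exon p19Arf, which stabilises p53 by holding Mdm2. The counts are per gene and do not separate these transcripts. The gene (ENSMUSG00000044303) lies at chr4:89274471-89294653 on the minus strand. It was at 75.8, 77.2 and 66.2 CPM in undifferentiated and 106, 101 and 116 CPM in dexamethasone replicates 1, 2 and 3, with no overlap. It rose 1.46-fold, with a log2 fold change of 0.55 ± 0.068 (SE; 95% interval 0.41 to 0.69) and an edgeR adjusted p of 3.36e-08.

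Cdkn2b encodes p15, the other INK4 inhibitor of this locus. The gene (ENSMUSG00000073802) lies at chr4:89306299-89311039 on the minus strand, separated from Cdkn2a by 11645 bases, and is listed at 0 reads in all 6 libraries. A count of 0 over a group allows up to 3 reads, or 0.136 CPM in undifferentiated and 0.125 CPM in dexamethasone cells. Its neighbours were counted: Cdkn2a had 1550 reads over the undifferentiated and 2664 over the dexamethasone libraries, and Mtap, on the far side of Cdkn2a, had 2514 and 2831. Skp2 and Dyrk1a, which dividing cells use, are also listed at 0 in all 6 libraries, so absence of Cdkn2b RNA is not read from its 0.

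Cdkn2c and Cdkn2d encode p18 and p19Ink4d, which like p16 bind Cdk4 and Cdk6. Cdkn2c (ENSMUSG00000028551, chr4:109660876-109667189, minus strand) was at 90.9, 90.2 and 91.2 CPM in undifferentiated and 25.7, 26.3 and 30.2 CPM in dexamethasone replicates 1, 2 and 3. Its undifferentiated libraries differed by 1 CPM or so, and the groups were far apart. Its log2 fold change was -1.74 ± 0.074 (SE; 95% interval -1.89 to -1.59), with an edgeR adjusted p of 6.40e-18. Cdkn2d (ENSMUSG00000096472, chr9:21288410-21291407, minus strand) was at 31.4, 23.7 and 27.1 CPM undifferentiated and 16.3, 16.1 and 18.6 CPM with dexamethasone, again without overlap. It fell 1.62-fold, with a log2 fold change of -0.69 ± 0.112 (SE; 95% interval -0.92 to -0.46) and an edgeR adjusted p of 3.05e-06. Both fell while Cdkn2a rose.

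**Figure D2:**
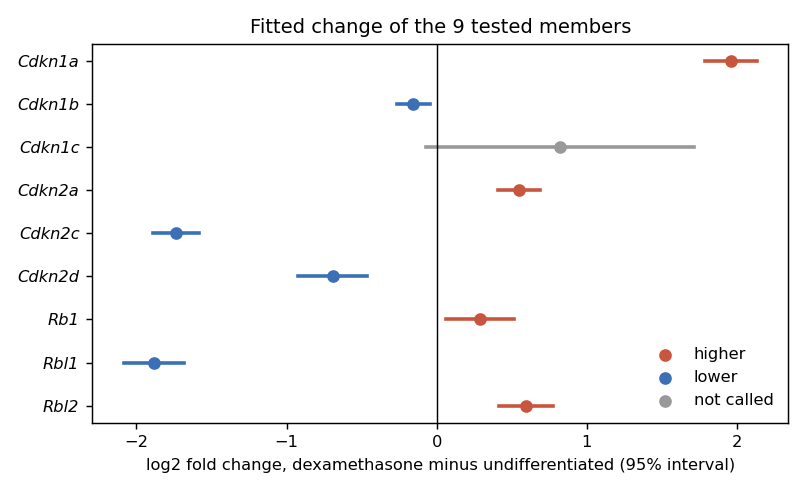
Fitted log2 fold change of each tested gene (x axis, dexamethasone minus undifferentiated) with its 95% interval as a bar. Red is called higher, blue called lower and grey not called. Cdkn1a at 1.96 lies opposite Cdkn2c at -1.74 and Rbl1 at -1.88, and the interval of Cdkn1c crosses 0.

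Rb1 encodes the retinoblastoma protein, which binds the activating E2F factors. The gene (ENSMUSG00000022105) lies at chr14:73183673-73325822 on the minus strand. It was at 17.2, 15.8 and 15.4 CPM in undifferentiated and 19.2, 19.2 and 21.3 CPM in dexamethasone replicates 1, 2 and 3. All dexamethasone libraries were higher, by a margin of a few CPM. It rose 1.22-fold, with a log2 fold change of 0.29 ± 0.11 (SE; 95% interval 0.06 to 0.52) and an edgeR adjusted p of 0.0188. The call was lost with DESeq2 (adjusted p = 0.0767), without undifferentiated replicate 2 (0.0594) or 3 (0.0622), and without dexamethasone replicate 3 (0.0664), each with a positive estimate.

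**Figure D3:**
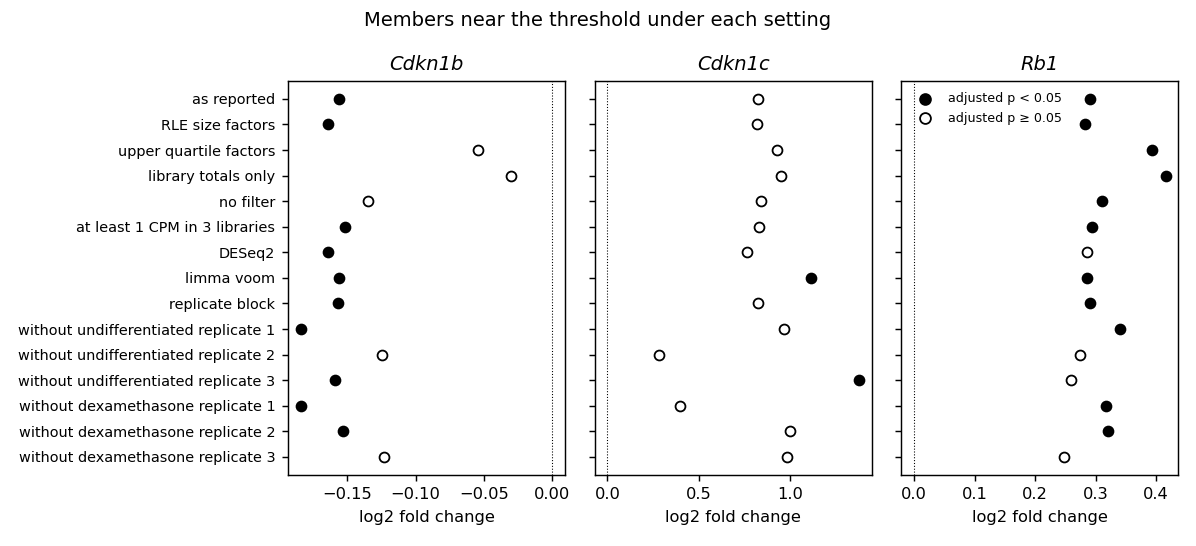
Log2 fold change (x axis) of Cdkn1b, Cdkn1c and Rb1 as reported and under each of 14 other settings (rows). Filled points have an adjusted p under 0.05 and open points do not. No estimate crosses 0, and the call of each gene changes with the setting.

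Rbl1 encodes p107, a pocket protein that is itself an E2F target and is made mainly in cycling cells. The gene (ENSMUSG00000027641) lies at chr2:157145893-157204534 on the minus strand. It was at 54.6, 54.7 and 59.1 CPM in undifferentiated and 15.8, 12.6 and 17.6 CPM in dexamethasone replicates 1, 2 and 3, and the groups lay far apart. Its log2 fold change was -1.88 ± 0.098 (SE; 95% interval -2.08 to -1.68), with an edgeR adjusted p of 5.84e-16. Rbl2 encodes p130, the pocket protein that prevails in resting cells, where it joins the MuvB core in the DREAM complex. The gene (ENSMUSG00000031666) lies at chr8:91070057-91123844 on the plus strand. It was at 26.6, 32.9 and 34.4 CPM in undifferentiated and 46.5, 47.4 and 47.4 CPM in dexamethasone libraries, again with no overlap. It rose 1.51-fold, with a log2 fold change of 0.59 ± 0.087 (SE; 95% interval 0.41 to 0.77) and an edgeR adjusted p of 7.29e-07.

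To compare levels between genes, CPM were divided by the exon length of each gene in kilobases. In undifferentiated cells the order was Cdkn2a (62.3 ± 5.10 CPM per kilobase; SD, n = 3), Cdkn1b (38.7 ± 1.57), Cdkn2c (33.8 ± 0.187), Cdkn2d (17.4 ± 2.44), Rbl1 (9.36 ± 0.431), Cdkn1a (6.05 ± 0.387), Rbl2 (4.14 ± 0.550), Rb1 (2.69 ± 0.160) and Cdkn1c (0.618 ± 0.460). No neighbours in that order overlapped between libraries. With dexamethasone it was Cdkn2a (91.9 ± 6.59 CPM per kilobase; SD, n = 3), Cdkn1b (34.7 ± 1.5), Cdkn1a (23.6 ± 1.92), Cdkn2d (10.8 ± 0.885), Cdkn2c (10.2 ± 0.920), Rbl2 (6.23 ± 0.0675), Rb1 (3.30 ± 0.204), Rbl1 (2.56 ± 0.417) and Cdkn1c (1.02 ± 0.437). Here Cdkn2d and Cdkn2c overlapped and the other neighbours did not. Cdkn2a and Cdkn1b kept the first places per kilobase in both groups, Cdkn1a passed Cdkn2c and Cdkn2d, and Rbl1 went from the highest of the pocket protein genes to the lowest.

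Shares of the reads per kilobase of a family within each library do not depend on the scaling between libraries. Rbl1 made up 58.8%, 56.7% and 58.1% of the pocket protein reads per kilobase in undifferentiated replicates 1, 2 and 3, and 22.1%, 18.2% and 23.0% in dexamethasone replicates 1, 2 and 3. Rbl2 went the other way, from 22.7%, 27.0% and 26.8% to 51.4%, 54.2% and 49.2%. The share of Rb1 was 16.6% ± 1.73 (SD, n = 3) and then 27.3% ± 0.642 (SD, n = 3). Shares within a family are tied, so the fall of a gene raises the shares of the others. Mean Rb1 went from 2.69 to 3.30 CPM per kilobase, and mean Rbl1 from 9.36 to 2.56. Rbl2 reads per kilobase were 0.442 ± 0.0486 times those of Rbl1 in undifferentiated cells and 2.48 ± 0.438 times with dexamethasone (SD, n = 3 each). The main pocket protein transcript was Rbl1 in every undifferentiated library and Rbl2 in every dexamethasone library. The groups did not overlap in any of these shares or in this ratio, and the exact two-sided permutation p was 0.1 for each, the smallest that 3 libraries against 3 can give.

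Among the 7 CDK inhibitor genes, Cdkn2a held 39.2% ± 2.08 of the reads per kilobase in undifferentiated and 53.3% ± 1.83 in dexamethasone libraries (SD, n = 3 each). These Cdkn2a reads include any from p19Arf transcripts. Cdkn1a had a share of 3.81% ± 0.233 and then 13.7% ± 1.34, and Cdkn1b of 24.4% ± 1.26 and then 20.2% ± 1.52. Cdkn2c had 21.3% ± 0.752 and then 5.92% ± 0.323, and Cdkn2d 11% ± 1.51 and then 6.27% ± 0.275. Of the 6 genes with reads, the share of Cdkn1c, under 1% in every library, overlapped between the groups (exact two-sided permutation p = 0.5). For each of the other 5 the groups did not overlap and the exact permutation p was 0.1. Cdkn1b reads per kilobase were 6.40 ± 0.186 times those of Cdkn1a before and 1.48 ± 0.167 times after treatment, and those of Cdkn2a were 1.85 ± 0.159 and 9.02 ± 0.406 times those of Cdkn2c (exact permutation p = 0.1 for both).

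**Figure D4:**
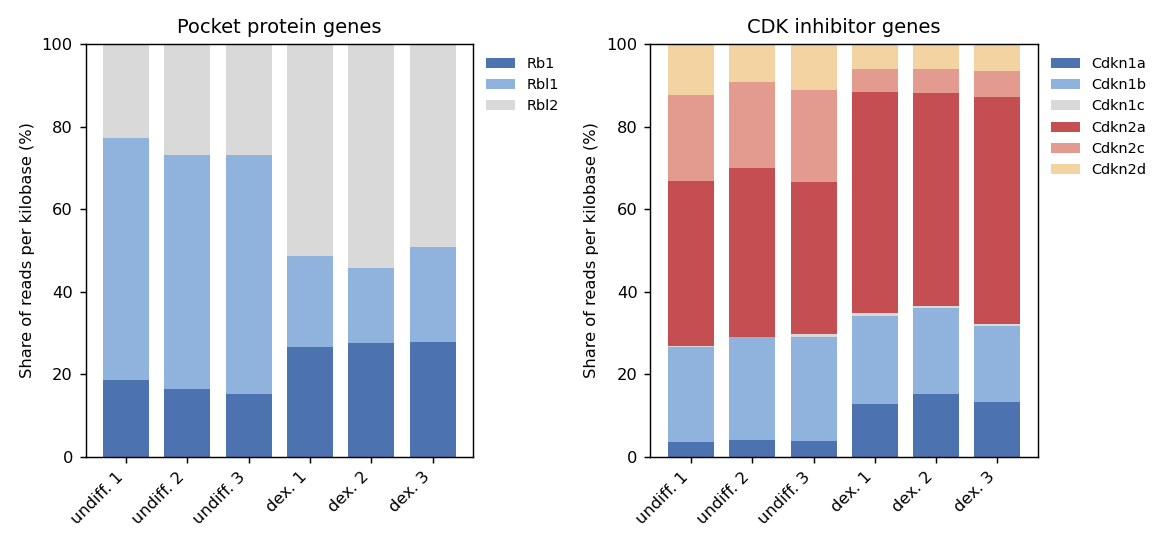
Share of each gene (y axis, percent) in the reads per kilobase of its family, in each of the 3 undifferentiated (undiff.) and 3 dexamethasone (dex.) libraries, for the pocket protein genes at left and the CDK inhibitor genes at right. Rbl1 fills over 56% of the pocket protein bars of undifferentiated libraries and at most 23.0% of the others, and the Cdkn1a segment is wider in every dexamethasone library.

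Levels per kilobase were also summed over each family. The 7 inhibitors summed to 159 ± 4.84 CPM per kilobase in undifferentiated and 172 ± 6.58 in dexamethasone cells (SD, n = 3 each; exact permutation p = 0.1). The Cip/Kip sum was 45.3 ± 1.66 and then 59.3 ± 1.77 (exact permutation p = 0.1), whereas the INK4 sum was 114 ± 5.42 and then 113 ± 8.27 (exact permutation p = 0.9). The INK4 sum depends on the length scaling: in CPM it ranged from 185 to 198 in undifferentiated libraries and from 143 to 165 with dexamethasone. The rise of the sum over all 7 inhibitors depends on it too, since in CPM the groups overlapped in that sum. The Cip/Kip sum in CPM ranged from 191 to 206 in undifferentiated libraries and from 236 to 251 with dexamethasone. The 3 pocket protein genes summed to 16.2 ± 0.750 and then 12.1 ± 0.591 CPM per kilobase (exact permutation p = 0.1).

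The inhibitor and pocket protein sums were then set against kinase and E2F levels, and their ratio to these was higher in every dexamethasone library. Most of that difference lay in the kinase and E2F levels, which were lower there. The 4 kinases summed to 236 ± 5.98 CPM per kilobase in undifferentiated and 85.8 ± 2.99 in dexamethasone cells, and E2f1 to E2f5 to 112 ± 1.07 and then 53.8 ± 0.714 (SD, n = 3 each). Cdk4 alone was at 170.3 ± 6.31 and then 79.2 ± 3.18 CPM per kilobase, while the INK4 sum had nearly the same mean in both groups, and the pocket protein sum was itself lower with dexamethasone. The inhibitors' sum per kilobase was 0.672 ± 0.0103 times that of Cdk1, Cdk2, Cdk4 and Cdk6 in undifferentiated cells and 2.01 ± 0.0728 times with dexamethasone (SD, n = 3 each), a 2.99-fold higher ratio. That ratio does not pair inhibitors with the kinases they bind. Its inhibitor sum includes the INK4 genes, whose proteins bind Cdk4 and Cdk6 alone. The INK4 sum was 0.667 ± 0.00854 times the level of Cdk4, the D-cyclin kinase that INK4 proteins bind, and then 1.43 ± 0.0961 times. The pocket protein sum was 0.145 ± 0.00791 times that of E2f1 to E2f5 and then 0.225 ± 0.0137 times. For each ratio the groups did not overlap, and the exact permutation p was 0.1. The inhibitor and INK4 sums include all Cdkn2a reads, which do not separate p16Ink4a from p19Arf. Cdkn2a was at 62.3 ± 5.10 CPM per kilobase in undifferentiated and 91.9 ± 6.59 in dexamethasone cells (SD, n = 3 each). How much of these sums and ratios is p19Arf RNA was not measured.

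Genes around the CDK inhibitors and pocket proteins were read from the same fit as counts. Of the D cyclins and their kinases 1 of 4 tested genes rose and 3 fell: Ccnd2 went from 81.2 ± 1.10 to 169 ± 8.92 CPM, Cdk4 from 553 ± 20.5 to 257 ± 10.3 CPM and Ccnd3 from 82.2 ± 2.98 to 45.1 ± 1.01 CPM (SD, n = 3). Cdk6, the other INK4 target, had 1 read in each group and was not tested. All 7 tested E, A and B cyclins and their kinases fell, with a median log2 fold change of -3.94. Ccna2, the S-phase cyclin, had a log2 fold change of -4.88 and Ccnb1, the mitotic cyclin, of -4.67. Of 8 genes that activate or restrain CDKs by adding or removing phosphate, 6 fell and none rose (median -1.51), among them the phosphatase Cdc25c (-4.18) and the kinase Wee1 (-1.95). Of the CDK-activating kinase genes, Ccnh (-0.34) was called lower, and Cdk7 (-0.02) and Mnat1 (0.03) were not called. With library totals alone Mnat1 was called higher (0.16, adjusted p = 0.0356).

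Of 10 E2F and DP genes, 9 fell and none rose, with a median log2 fold change of -1.17. The falls were largest for E2f8 (-4.24) and E2f7 (-3.43), the atypical E2F repressors that are themselves E2F targets, and Tfdp2 (0.01) was not called. E2f4, the main partner of p107 and p130, went from 128 ± 2.49 to 65.4 ± 0.291 CPM (SD, n = 3). In the MuvB core and its partners 6 of 7 tested genes fell (median -1.70): Mybl2, the partner of MuvB in S phase, had a log2 fold change of -5.02 and Foxm1, its partner in G2, of -3.75. Lin37, a MuvB subunit, was not called at 0.09. All 18 E2F target genes listed fell, with a median of -3.36, including Mcm5 of the replicative helicase (-4.81) and Rrm2 of ribonucleotide reductase (-5.01). Of 13 pocket protein corepressors, 3 rose and 8 fell (median -0.70). The ATPase Smarca2 (0.92) and the demethylase Kdm5a (0.53) rose, and the histone methyltransferases Suv39h1 (-1.55) and Suv39h2 (-2.98) fell.

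Genes for the breakdown of CDK inhibitors fell in 11 of 13 tested cases and rose in none, with a median log2 fold change of -0.75. Rnf123, a subunit of a ligase for p27, was called higher with upper quartile scaling (0.23, adjusted p = 0.0296), with library totals (0.26, 0.0202) and without dexamethasone replicate 1 (0.22, 0.0371). Dtl, which directs p21 to ubiquitination in S phase, went from 128 ± 6.56 to 12.5 ± 1.43 CPM, Cks1b, the cofactor for p27 breakdown, from 122 ± 3.98 to 25.1 ± 1.31 CPM, and Cdc20 from 79.6 ± 2.94 to 4.49 ± 1.02 CPM (SD, n = 3). Cks1b was chosen after its values were seen. Of 17 tested transcriptional regulators of the inhibitors 7 rose and 8 fell (median 0.05). Foxo3, a known activator of Cdkn1b and Rbl2, had a log2 fold change of 1.99 and Cebpb of 2.41, while Ezh2, the Polycomb methyltransferase that silences Cdkn2a, had -2.77 and the immediate early factor Egr1 had -1.46. Of 13 tested p53 target genes other than Cdkn1a, 8 rose and 3 fell (median 0.95). Trp53inp1 went from 1.47 ± 0.182 to 67.6 ± 3.14 CPM and Gadd45a from 3.81 ± 0.991 to 44.5 ± 3.60 CPM (SD, n = 3). Aen (-0.97) and Bax (-0.74) fell, as did Trp53 itself (-0.89), which like Mdm2 (-0.23), the p53 ubiquitin ligase, was named after its value was seen.

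**Figure D5:**
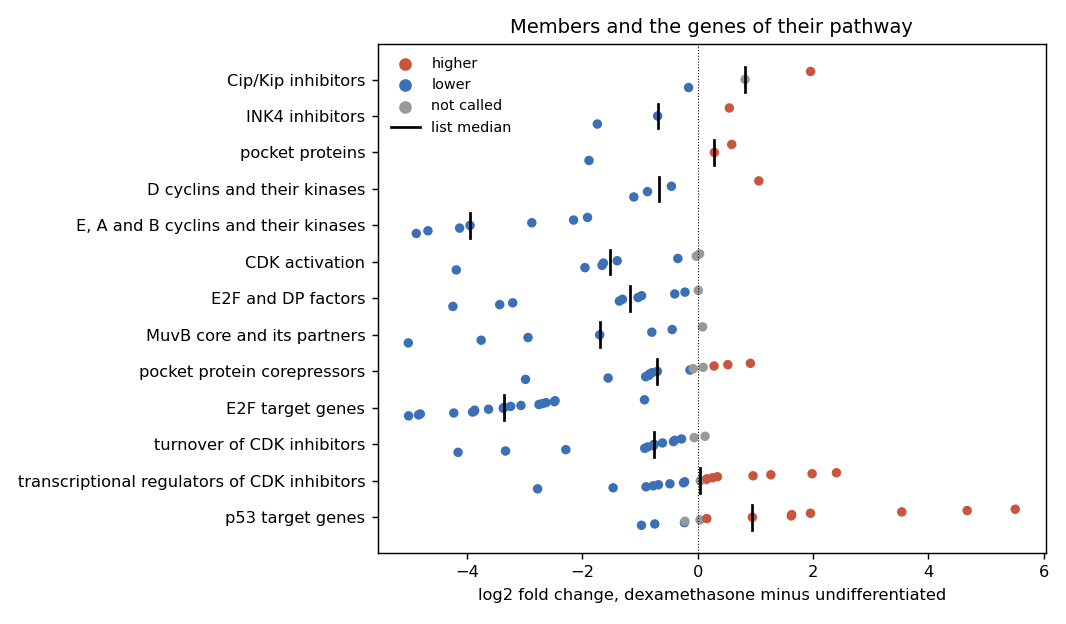
Log2 fold change (x axis, dexamethasone minus undifferentiated) of every tested gene in the families and in the lists around them (rows). Red is called higher, blue called lower and grey not called, and the black tick is the list's median. Cyclin E, A and B and E2F target genes lie wholly below 0, p53 targets spread from -0.97 to 5.51, and each family of inhibitors or pocket proteins has genes on both sides.

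The cell type markers changed in the same comparison, and their part in the values above was not tested. All 5 cycling cell markers fell, with a median log2 fold change of -4.53 and a summed level of 2220 to 2334 CPM in undifferentiated and 87.4 to 107 CPM in dexamethasone libraries. Of 10 catecholaminergic and neuroendocrine markers, all detected, 4 rose and 5 fell. Their sum was 2611 to 2645 CPM in undifferentiated and 10452 to 12527 CPM in dexamethasone libraries, and its rise was that of Chgb, from 1028 ± 46.7 to 10002 ± 1124 CPM (SD, n = 3). The other 9 summed to 1547 to 1634 CPM and then to 1244 to 1296 CPM, with Dbh going from 165 ± 3.07 to 12.5 ± 0.354 CPM. The defining enzyme Th was low in both groups, at 4.60 and 9.52 CPM, and Ddc at 3.61 and 0.466 CPM. Of 7 fibroblast markers 3 were tested and 2 rose, Dcn from 8.30 ± 1.5 to 17.6 ± 0.896 CPM and Pdgfrb from 0.580 ± 0.503 to 2.71 ± 0.244 CPM (SD, n = 3). The 7 summed to 10.1 to 14.6 and then 20.9 to 23.3 CPM, with Col3a1 at 0 in all libraries. Of 7 immune and endothelial markers Pecam1 alone was tested, and it rose from 19.5 ± 1.30 to 33.1 ± 0.882 CPM (SD, n = 3). Cdh5, untested, had 0 reads in each undifferentiated library and 7, 17 and 9 reads in dexamethasone replicates 1, 2 and 3. The 7 summed to 18.3 to 21.7 and then 33.5 to 36.2 CPM, with Ptprc at 0. Of the astrocyte and oligodendrocyte markers, Mbp rose from 0.763 ± 0.297 to 2.17 ± 0.493 CPM (SD, n = 3), and Mog and Sox10 were at 0.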

How the data were processed

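The deposited values are raw read counts per gene, 1 file per library. Per the file headers, the authors ran featureCounts 1.6.4 with strand setting 1, and exon reads were summed by gene (Ensembl release 96). Reads of overlapping genes on the opposite strand, such as Aktip within the span of Rbl2 and Rcbtb2 within that of Rb1, were therefore counted apart from theirs. Per the submitters' processing notes, the tools also included HISAT2 2.2.0, Trim Galore 0.6.4, FastQC 0.11.9 and DESeq2, on GRCm38.p6. All 55536 gene identifiers matched GENCODE M21 with equal starts and ends.

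Genes were filtered with edgeR's filterByExpr (minimum count 10, minimum total 15), which kept 12664 genes with 99.8% of all reads. TMM scaling was followed by glmQLFit and glmQLFTest (edgeR 4.0.16 in R 4.3.3), 3 libraries against 3 with no covariate, and p-values were adjusted over all of them. The script was tested on simulated data in which far fewer genes changed than were called here, so that test does not cover this setting. The standard error was derived from the log2 fold change and the root of its F statistic. Exon lengths are the merged exons counted by the authors. Limits from a count of 0 cover counting error only. Shares, ratios and sums were compared by exact two-sided permutation. The alternatives were other scalings (RLE, upper quartile, library totals), DESeq2 1.42.0, limma 3.58.1 (voom), no filter, a minimum of 1 CPM in 3 libraries, each library left out, a replicate block, adjusted p under 0.01 and, for shares, reads not divided by gene length. The last and the leaving out of libraries were added for the ratios after seeing the data.

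The genes described, the lists and the alternatives were chosen with earlier results of these data known. Named are all 10 genes, Mki67 and, from each list, up to 2 called genes per direction with the smallest adjusted p and a group mean of at least 1 CPM. Other genes named (E2f4, Tfdp2, Lin37, Cdk6, Cdk7, Ccnh, Mnat1, Rnf123, Cks1b, Trp53, Mdm2, Skp2, Dyrk1a, Mtap and the cell type markers) fall outside that rule. Promoter sequences are from RefSeq, printed for the called genes with the largest change in each direction. The p53 element was searched after the Cdkn1a sequence had been seen.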

Additional observations from a re-analysis of the deposited data

How the results depend on the processing

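All 9 tested genes kept their direction under all 14 alternatives, and Cdkn1a, Cdkn2a, Cdkn2c, Cdkn2d, Rbl1 and Rbl2 also kept their call. Their log2 fold changes ranged from 1.90 to 2.08, 0.49 to 0.68, -1.80 to -1.61, -0.79 to -0.57, -1.97 to -1.75 and 0.49 to 0.72, in that order. Cdkn1b kept its call in 9, Rb1 in 10 and Cdkn1c gained one in 2, for causes that were not tested. At an adjusted p under 0.01 Cdkn1b and Rb1 lost theirs, leaving 3 genes higher and 3 lower. Under upper quartile scaling and library totals the median of all genes rose by 0.10 and 0.13. The 27 genes named from the lists kept direction and call under all 14. Without division by gene length, the difference in share (dexamethasone minus undifferentiated, percentage points) was 8.48 for Rb1 (10.7 with division), 15.7 for Cdkn1a (9.92), 8.47 for Cdkn2a (14.1), -16.4 for Cdkn2c (-15.4) and -2.74 for Cdkn2d (-4.69), since longer genes then weigh more. The 6 ratios between genes or sums kept their direction without that division and without each library. With the replicate block 9820 genes were called, against 9997, and the calls of the genes described were the same. Same-numbered libraries deviated with correlations of -0.11 to 0.036, and 2 of 6 libraries correlated best with their own number. No pairing by number was seen, but so few libraries cannot exclude it. The count of list genes called higher went from 0 to 1 in the CDK activation list (library totals) and in the turnover list (upper quartile, library totals, without dexamethasone replicate 1). Depth limits Cdkn1c, with 2 to 28 reads per library.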
